A study of Mus musculus with 12 samples.

Results

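Natural killer and cytotoxic genes were followed through RNA sequencing of blood and spleen from mice with and without nuclear myosin 1. The set was chosen by name: 10 genes of the 46603 in each count table, namely the killer cell receptors Ncr1, Klrb1c, Klrd1 and Klrk1, the granule genes Nkg7, Prf1, Gzma and Gzmb, and the transcription factors Eomes and Tbx21. All 10 were found by symbol, and all 10 passed the filter on low counts in every comparison.

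Natural killer (NK) cells and cytotoxic T cells destroy infected or altered cells by releasing granules. Perforin, the product of Prf1, opens the target membrane, and granzymes such as those of Gzma and Gzmb are proteases that enter through it and start cell death. Whether a killer cell fires depends on a balance of activating and inhibitory receptors, and its cytotoxic programme is set up by the T-box factors encoded by Tbx21 (T-bet) and Eomes.

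The groups were KO blood, WT blood, KO spleen and WT spleen, with 3 libraries each, from C57/Bl6 mice 8 months old. KO mice lack nuclear myosin 1 (NM1), a nuclear form of the class I myosin Myo1c, and WT mice are the wild type of the same strain label. Per the labels' protocols, blood was taken from the submandibular vein and spleen RNA came from a small piece of the tip, and 500 ng of total RNA entered each library. The labels do not say whether each library came from a separate mouse, so p-values measure the spread between these libraries, which may be technical.

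Levels are given as CPM, counts per 1000000 counts with globin left out. Libraries fell into 2 kinds that did not follow the tissue labels. The globin share, a measure of red cell RNA, was 48.9% to 56.1% in 6 globin-rich libraries (blood KO 02, blood KO 03, blood WT 01, spleen KO 03, spleen WT 02 and spleen WT 04) and 0.846% to 5.90% in the other 6, called globin-poor. The summed level of markers of red pulp macrophages, a cell type of the spleen, was 21.1 to 63.6 CPM in globin-rich libraries. In globin-poor ones it was 547 to 873 CPM. These markers were thus nearly absent from 3 libraries labelled spleen and abundant in 3 labelled blood. The summed level of platelet markers was 2502 to 7874 CPM in globin-rich libraries, against 216 to 372 CPM in globin-poor ones. Total counts were 9.32 to 12.1 M in the globin-rich and 23.1 to 28.2 M in the globin-poor libraries (M, 1000000), of which 4.09 to 5.83 M and 21.8 to 27.4 M were not globin. A count of 0 would allow up to 3 counts, which is 0.109 to 0.733 CPM depending on the library. Olfactory receptor genes, normally read in the nose, summed to 100.2 to 144 CPM in 4 globin-rich libraries (blood KO 02, blood WT 01, spleen WT 02 and spleen WT 04) and to 6.52 to 11.6 CPM in the other 8. Myo1c had 150 to 200 CPM in KO blood against 163 to 219 CPM in WT blood, and 128 to 170 CPM in KO spleen against 58.5 to 180 CPM in WT spleen. A gene-level count sums all forms of Myo1c, so it checks neither the knockout nor the labels.

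Ncr1 and Gzmb separated the 2 kinds of library in every sample. Ncr1 encodes NKp46, an activating receptor that marks NK cells. It had 15.2, 12.6 and 2.51 CPM in KO blood (replicates 02, 03 and 04), against 11.7, 0.964 and 5.03 CPM in WT blood (01, 03 and 04). In KO spleen it had 3.39, 15.9 and 5.20 CPM (01, 03 and 04), against 3.73, 8.70 and 11.2 CPM in WT spleen (01, 02 and 04). The 6 globin-rich libraries held the 6 highest values, 8.70 to 15.9 CPM with a median of 12.1, against 0.964 to 5.20 CPM with a median of 3.56 in the globin-poor libraries. Gzmb, granzyme B, showed the same separation by a narrow margin. Its values, in the same replicate order, were 13.4, 10.5 and 2.20 CPM in KO blood against 12.9, 2.53 and 4.39 CPM in WT blood, and 2.74, 10.4 and 3.99 CPM in KO spleen against 3.93, 6.09 and 4.40 CPM in WT spleen. The lowest globin-rich value, 4.40 CPM from 18 counts in spleen WT 04, stood beside a highest globin-poor value of 4.39 CPM from 103 counts in blood WT 04. Counting error alone could close that gap. Over all genes, 3.49% lay higher in all 6 globin-rich libraries by CPM and 49.8% lay lower, so these 2 genes were among the minority that stood higher by this measure.

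Nkg7, a granule membrane protein that mouse killer cells need for granule release, did not follow Ncr1. It had 27.2, 28.0 and 32.2 CPM in KO blood against 26.1, 38.2 and 35.7 CPM in WT blood, and 45.7, 40.8 and 56.1 CPM in KO spleen against 61.1, 15.2 and 15.1 CPM in WT spleen. Globin-rich libraries ranged from 15.1 to 40.8 CPM and globin-poor ones from 32.2 to 61.1 CPM, with an overlap set by the library labelled spleen KO 03. Klrd1 (CD94), the shared partner chain of the NKG2A and NKG2C receptors, did not follow it either, with 21.3, 15.6 and 19.3 CPM in KO blood against 23.5, 24.5 and 27.9 CPM in WT blood, and 31.3, 31.4 and 42.2 CPM in KO spleen against 35.3, 10.9 and 12.0 CPM in WT spleen. The lowest of all 12 Klrd1 values were the 2 globin-rich libraries labelled WT spleen.

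Gzma, granzyme A, reached 45.1, 46.0 and 21.3 CPM in KO blood against 51.8, 21.7 and 29.8 CPM in WT blood, and 16.2, 62.2 and 28.7 CPM in KO spleen against 29.0, 30.2 and 26.4 CPM in WT spleen. Its 5 highest values were all in globin-rich libraries. Prf1 (perforin) spanned 12.8 to 34.1 CPM (median 19.9) in the globin-rich and 6.11 to 21.5 CPM (median 13.3) in the globin-poor libraries. Klrb1c encodes NK1.1, the antigen by which NK cells of C57BL/6 mice are recognised, and spanned 5.44 to 15.0 CPM against 4.13 to 9.84 CPM. Klrb1c belongs to a family of close copies (Klrb1a, Klrb1b and Klrb1f), and how reads shared between copies were counted is not given in the sources used here. Klrk1, the activating receptor NKG2D, spanned 9.29 to 28.8 CPM in globin-rich libraries, against 14.7 to 29.8 CPM in globin-poor ones. Eomes, which keeps the identity of mature NK cells, spanned 5.86 to 15.9 CPM against 7.39 to 22.9 CPM. Tbx21, which drives NK cell maturation, spanned 2.20 to 12.6 CPM against 8.77 to 21.2 CPM, and its lowest value, in spleen WT 04, rested on 9 counts. In bulk tissue such levels cannot tell fewer killer cells from less RNA of a gene per cell.

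**Figure D1:**
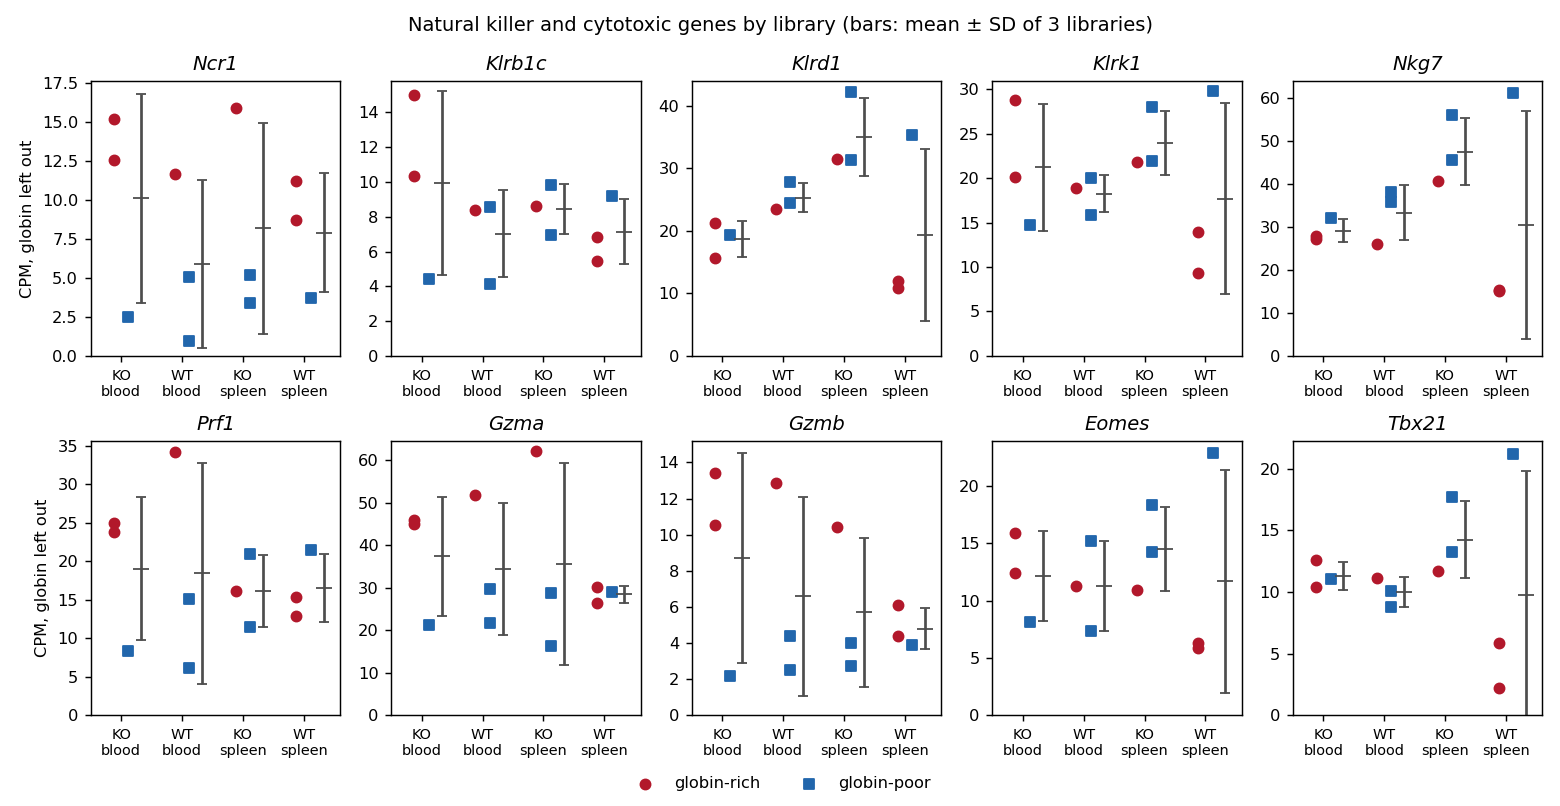
CPM with globin left out (vertical axes) for the 10 genes in the 12 libraries, by genotype and tissue label; red circles are globin-rich and blue squares globin-poor libraries, and grey bars give the mean ± SD of 3 libraries. Red and blue do not overlap for Ncr1 (8.70 to 15.9 against 0.964 to 5.20 CPM) and barely so for Gzmb (4.40 to 13.4 against 2.20 to 4.39 CPM), while on this scale, unlike with TMM, most red points lie low for Nkg7 and Klrd1.

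In GENCODE vM21 of GRCm38 the 10 genes lie on 7 chromosomes. Klrb1c (ENSMUSG00000030325, chr6:128778485-128789215, minus), Klrd1 (ENSMUSG00000030165, chr6:129591782-129598775, plus) and Klrk1 (ENSMUSG00000030149, chr6:129610323-129623864, minus) belong to the natural killer gene complex of chromosome 6. Ncr1 (ENSMUSG00000062524, chr7:4337724-4345164, plus) and Nkg7 (ENSMUSG00000004612, chr7:43437073-43438249, plus) share chromosome 7. Prf1 (ENSMUSG00000037202) is at chr10:61297833-61304680 (plus), Gzma (ENSMUSG00000023132) at chr13:113093825-113100981 (minus) and Gzmb (ENSMUSG00000015437) at chr14:56258838-56262260 (minus). Eomes (ENSMUSG00000032446) is at chr9:118478212-118486132 (plus) and Tbx21 (ENSMUSG00000001444) at chr11:97098071-97115331 (minus).

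The promoter windows of 3 genes that took a larger part of the cytotoxic transcripts in globin-rich libraries, and of Nkg7, which took a smaller part, are shown because these genes carry the contrast described next. Each is the 250 bases before the RefSeq start in GRCm38.p6, 5′ to 3′ on the gene's strand. The windows are Ncr1 at chr7:4337465-4337714 (plus), Gzmb at chr14:56262335-56262584 (minus), Gzma at chr13:113100982-113101231 (minus) and Nkg7 at chr7:43436888-43437137 (plus). Capitals mark the letters AGGTGT, a core of T-box motifs, and TGTGGT, a core of RUNX motifs, on either strand, where they read ACACCT and ACCACA on the other strand. No match of one overlapped a match of the other in these windows.
Ncr1: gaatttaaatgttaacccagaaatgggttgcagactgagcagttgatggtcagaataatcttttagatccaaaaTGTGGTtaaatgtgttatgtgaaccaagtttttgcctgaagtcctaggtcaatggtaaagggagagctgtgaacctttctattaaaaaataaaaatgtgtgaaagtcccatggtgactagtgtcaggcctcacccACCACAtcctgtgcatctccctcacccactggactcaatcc
Gzmb: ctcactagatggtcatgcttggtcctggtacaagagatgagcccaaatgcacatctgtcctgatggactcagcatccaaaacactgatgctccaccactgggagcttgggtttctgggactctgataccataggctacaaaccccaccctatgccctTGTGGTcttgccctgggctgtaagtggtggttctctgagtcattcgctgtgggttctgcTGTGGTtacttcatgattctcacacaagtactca
Gzma: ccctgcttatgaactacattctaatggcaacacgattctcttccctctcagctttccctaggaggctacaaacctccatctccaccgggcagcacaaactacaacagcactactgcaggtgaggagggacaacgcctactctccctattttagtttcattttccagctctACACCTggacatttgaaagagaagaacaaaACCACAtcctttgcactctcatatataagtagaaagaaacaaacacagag
Nkg7: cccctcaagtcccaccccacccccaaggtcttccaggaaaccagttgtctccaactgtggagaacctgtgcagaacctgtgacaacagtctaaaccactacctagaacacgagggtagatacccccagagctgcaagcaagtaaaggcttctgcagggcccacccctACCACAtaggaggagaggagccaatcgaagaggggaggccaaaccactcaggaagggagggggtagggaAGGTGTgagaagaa
Windows were found for 9 of the 10 genes, all but Klrd1. AGGTGT was present in 3 of them (Nkg7, Prf1 and Gzma) and in 11.8% of all 32851 RefSeq windows of that length. TGTGGT was present in 7 (Ncr1, Klrb1c, Klrk1, Nkg7, Prf1, Gzma and Gzmb), with 2 matches each in Ncr1 and Gzmb, and in 14.0% of all windows. Neither was in the windows of Eomes and Tbx21. The letters TTCNNNGAA, a STAT pattern, were in the Nkg7 window and in 7.02% of all windows, and CAGGAA, an ETS pattern, was in those of Klrk1, Nkg7, Prf1 and Tbx21 and in 25.7% of all. These matches describe letters and do not show binding.

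Globin-rich against globin-poor libraries were then compared in 1 fit of all 12 libraries with genotype and tissue label as terms. Effects are log2 fold changes ± SE from edgeR's quasi-likelihood F test, with Benjamini-Hochberg adjustment over 17555 genes and a call at an adjusted p under 0.05. Ncr1 was higher by 2.97 ± 0.31 (adjusted p = 2.8e-06), Gzmb by 2.58 ± 0.26 (1.8e-06), Gzma by 1.91 ± 0.18 (7.6e-07), Prf1 by 1.74 ± 0.29 (0.00018), Klrb1c by 1.45 ± 0.29 (0.00073) and Klrk1 by 0.87 ± 0.20 (0.0017). These 6 of 10 genes were called higher and none lower, beside 55.9% of all tested genes called, 29.1% higher and 26.8% lower. The other 4 were not called: Eomes at 0.65 ± 0.27 (adjusted p = 0.051), Tbx21 at 0.45 ± 0.30 (0.21), Klrd1 at 0.41 ± 0.17 (0.056) and Nkg7 at 0.25 ± 0.17 (0.23). Klrd1 and Eomes were called without the library spleen WT 01 (0.48 and 0.85, adjusted p = 0.038 and 0.010 by edgeR), as was Tbx21 (0.70, 0.042). Klrd1 was also called without spleen KO 04 (0.50, 0.036) and Eomes without blood WT 04 (0.76, 0.048). The median of the 10 was 1.16, against 0.02 over all genes.

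These effects rest on scaling by the trimmed mean of M-values (TMM), which matches the bulk of genes between libraries. Scaled by the total count without globin alone, the median of all genes moved to -1.05 and that of the 10 genes to 0.03. Ncr1 (1.85 ± 0.37, adjusted p = 0.00019), Gzmb (1.48 ± 0.36, 0.0013) and Gzma (0.82 ± 0.25, 0.0065) remained called higher by the same edgeR test. Nkg7 (-0.84 ± 0.26, 0.0066) and Klrd1 (-0.65 ± 0.27, 0.041) were called lower on that scale, where 12.7% of all genes were called higher and 57.4% lower. Prf1 (0.61 ± 0.35) and Klrb1c (0.30 ± 0.34) were not called there, and Klrk1 (-0.24 ± 0.28), Eomes (-0.47 ± 0.35) and Tbx21 (-0.64 ± 0.36) took the other sign without a call. Set against the median of all genes, the 2 scalings gave near the same position: 2.95 and 2.90 above it for Ncr1, 2.55 and 2.53 for Gzmb, 0.39 and 0.40 for Klrd1, and 0.22 and 0.21 for Nkg7. This nearness was bound to arise, since a change of scaling shifts every gene by nearly the same amount. With the 4 libraries rich in olfactory receptor counts left out, 8 of the 10 genes were called higher with TMM, with a median of 1.44. That setting was chosen after seeing the data and leaves 2 globin-rich libraries, both KO.

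**Figure D2:**
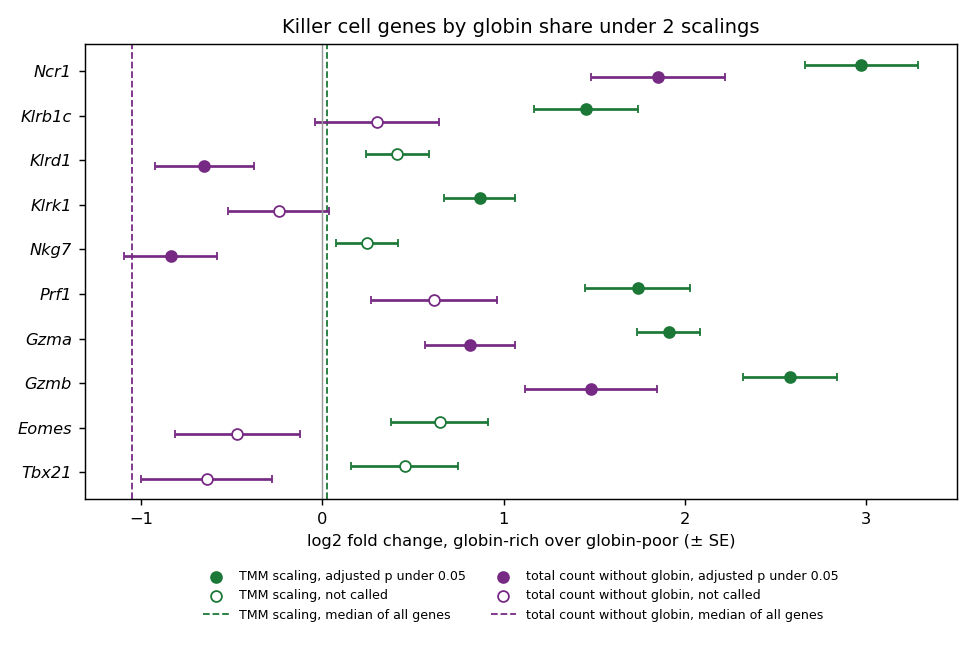
Log2 fold change of globin-rich over globin-poor libraries ± SE (horizontal axis) for the 10 genes, with TMM scaling in green and scaling by the total count without globin in purple; filled points have an adjusted p under 0.05 and dashed lines mark the median of all genes, 0.02 and -1.05. Ncr1, Gzma and Gzmb are filled and above 0 under both scalings, while Nkg7, Klrd1, Klrk1, Eomes and Tbx21 lie above 0 in green and below 0 in purple.

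The contrast was also read within each tissue label, 3 globin-rich against 3 globin-poor libraries under each. Under the blood label Ncr1, Prf1, Gzma and Gzmb lay higher and Nkg7 lower in every globin-rich library by CPM, beside 7.78% of all genes higher and 58.6% lower. Under the spleen label Ncr1 and Gzmb lay higher and Klrk1, Nkg7, Eomes and Tbx21 lower by CPM, beside 5.85% higher and 71.2% lower over all genes. On the TMM scale all 10 genes lay higher under the blood label (27.7% of all genes) and Ncr1, Klrb1c, Prf1, Gzma and Gzmb did under the spleen label (20.4%). The same 5 genes lay higher with both labels pooled, as did 13.2% of all genes on that scale. Ncr1 and Gzmb thus stood apart under each label and by each scale. By CPM the Gzmb gap was narrow with the labels pooled and also under the spleen label. Under that label the lowest globin-rich value was 4.40 CPM, from 18 counts, against a highest globin-poor value of 3.99 CPM.

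A measure free of library scaling is the share each gene took of the summed CPM of the 10. The sum itself was 109 to 230 CPM in globin-rich libraries, against 124 to 238 CPM in globin-poor ones, so the ranges overlapped. Within it Ncr1 took 5.56% to 10.3% in the globin-rich and 0.741% to 2.93% in the globin-poor libraries. Gzma took 21.3% to 27.0% against 9.70% to 17.4%, and Gzmb took 4.04% to 6.35% against 1.64% to 2.56%. Nkg7 took 12.4% to 17.7% against 20.8% to 29.3%, and Klrd1 took 7.88% to 13.7% against 14.9% to 18.8%. For each of these 5 genes no globin-rich library reached the range of the globin-poor ones, whereas Klrb1c, Klrk1, Prf1, Eomes and Tbx21 overlapped. The shares add up to a fixed total, so a rise of some forces a fall of others. The lower shares of Nkg7 and Klrd1 are thus no separate result, and with TMM neither gene was called lower. No matching share over all genes was taken for this measure. Ncr1 stood at 0.390 to 0.742 of the Nkg7 level by CPM in the globin-rich libraries and at 0.0253 to 0.141 in the globin-poor ones. T cells also use Nkg7, Klrd1 and Klrk1, and cytotoxic T cells use Prf1, Gzma and Gzmb too. The 12 T cell markers summed to 343 to 639 CPM in globin-rich libraries, against 604 to 1473 CPM in globin-poor ones. The part of T cell or platelet content in these shares was not tested.

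**Figure D3:**
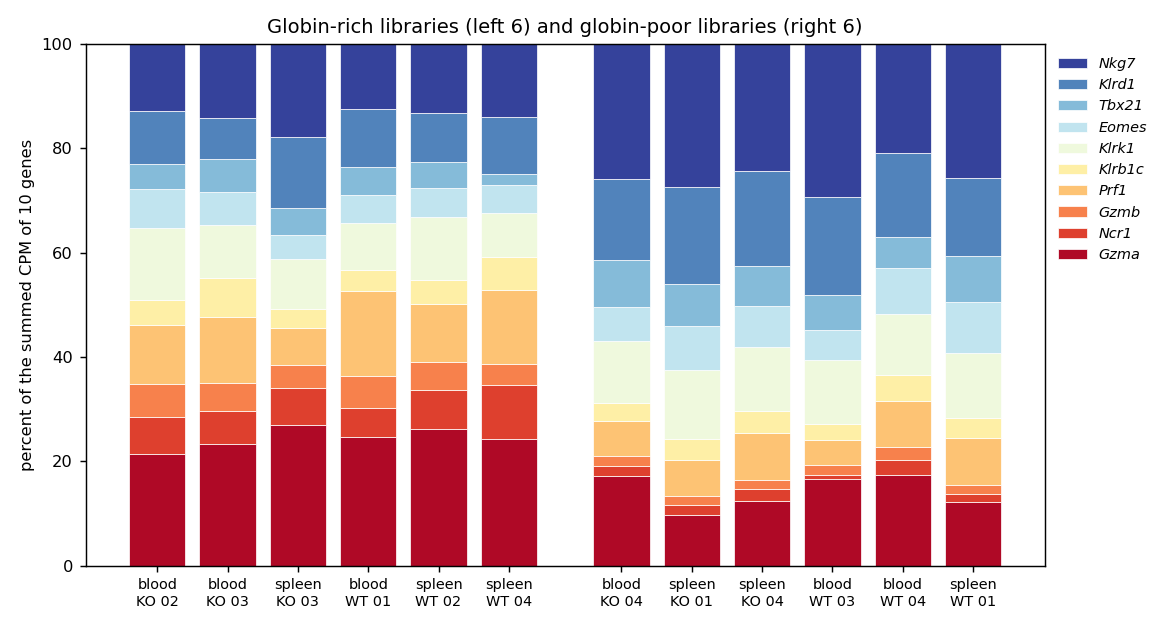
Percent of the summed CPM of the 10 genes taken by each gene (stacked bars to 100), for the 6 globin-rich libraries on the left and the 6 globin-poor libraries on the right. Gzma, Ncr1 and Gzmb, at the bottom of the bars, take more on the left in every library, and Nkg7 and Klrd1, at the top, take more on the right.

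Per length of annotated exon the order of the levels differed between the kinds. The median level per kb in globin-rich libraries ran from Gzma at 45.3 CPM per kb through Nkg7 at 29.1, Klrd1 at 14.4, Ncr1 at 7.87, Prf1 at 7.72, Gzmb at 7.29, Tbx21 at 4.33, Klrb1c at 2.87 and Klrk1 at 2.71 to Eomes at 2.68 CPM per kb. The ranges of each neighbouring pair in that order overlapped over the 6 libraries. Within single libraries, however, Gzma stood at 1.52 to 1.99 of the Nkg7 level by CPM. In globin-poor libraries Nkg7 led with a median level of 45.9 CPM per kb, then Gzma at 25.0 and Klrd1 at 23.1. Prf1 followed at 5.14, Tbx21 at 4.89, Eomes at 3.54, Klrk1 at 2.92, Klrb1c at 2.62, Gzmb at 2.32 and Ncr1 at 2.31 CPM per kb. There Nkg7 lay above Gzma and Klrd1 above Prf1 in every library, and the ranges of the other neighbours overlapped. Ncr1 was thus the fourth of the 10 in one kind and the last in the other.

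The comparison of KO with WT blood asks whether killer cell genes change without NM1. No difference between these groups passed the test for any of the 10 genes. Ncr1 averaged 10.1 ± 6.70 CPM in KO and 5.89 ± 5.40 CPM in WT blood (SD, n = 3 each), a log2 fold change of 1.17 ± 1.22 with an adjusted p of 1.0 by edgeR. KO blood held 2 globin-rich libraries and WT blood 1, and with library kind as a term in the edgeR fit the Ncr1 effect was 0.18 ± 0.49. Of the 10 genes 9 lay above 0 with a median of 0.61, against -0.06 over all genes (0.15 and -0.40 without TMM), and with the kind term 6 lay above 0 with a median of 0.08. Leaving out 1 library gave medians of 0.25 (without blood KO 03) to 1.16 (without blood WT 01). Klrd1 averaged 18.7 ± 2.89 CPM in KO and 25.3 ± 2.30 CPM in WT blood, with every KO library below every WT library, as held for 3.37% of all genes. On the TMM scale, where 2.02% of all genes lay apart and lower, the Klrd1 groups overlapped and its effect was -0.02 ± 0.35. EdgeR called 0 of all 15002 genes (0.0%), and 27 had an unadjusted p under 0.05. Neither DESeq2 nor limma-voom called a gene (0 each), and 54 and 39 genes passed that unadjusted level.

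In spleen the KO libraries numbered 1 globin-rich and the WT libraries 2, the reverse of blood. Ncr1 averaged 8.17 ± 6.76 CPM in KO and 7.89 ± 3.82 CPM in WT spleen (SD, n = 3 each), and its log2 fold change was -0.74 ± 1.08. Without TMM that effect was 0.048, and with the kind term 0.13 ± 0.36. Klrd1 averaged 35.0 ± 6.21 CPM in KO and 19.4 ± 13.8 CPM in WT spleen, an effect of 0.35 ± 0.29, which was 0.85 without TMM, 0.42 with the kind term and 0.19 without spleen KO 03. The 10 genes had a median of -0.24 with 3 above 0 by TMM, but of 0.31 with 9 above 0 without TMM (all genes 0.02 and 0.54), and of 0.05 with the kind term. Leaving out 1 library gave medians of -0.51 (without spleen KO 03) to 0.10 (without spleen WT 02, 6 above 0). None of the 10 and 0 of 15402 genes (0.0%) were called by edgeR, and 359 had an unadjusted p under 0.05. Neither alternative tool called a gene (0 each), with 714 below that level in DESeq2 and 153 in limma-voom.

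Whether the KO effect differed between the tissue labels was tested as an interaction, spleen minus blood. Ncr1 had -1.88 ± 1.76 (-0.74 without TMM) and Klrd1 0.39 ± 0.44 (1.28 without TMM and 0.67 with the kind term), and none of the 10 was called. Leaving out 1 library gave Klrd1 0.14 (without blood KO 04) to 0.71 (without blood KO 03), and medians of the 10 from -1.24 to -0.32 (without the same 2 libraries). The median of the 10 was -0.81 by TMM and 0.20 without it, beside 0.01 and 0.90 over all genes, and was -0.10 with the kind term, where Ncr1 stood at -0.03 ± 0.67. EdgeR called 0 of 17555 genes (0.0%) and 239 had an unadjusted p under 0.05, while DESeq2 and limma-voom called 0 and had 580 and 79 such genes.

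Over all 12 libraries, with tissue label and kind as terms, the KO effects on the 10 genes were small. They ranged from -0.10 ± 0.27 for Prf1 to 0.33 ± 0.29 for Tbx21, with a median of 0.15 and 8 of 10 above 0. Without blood WT 03 the median was 0.050 and without blood KO 04 it was 0.24. The smallest adjusted p among them was 0.90 by edgeR, and the 95% interval of the log2 fold change was -0.34 to 1.00 for Tbx21 and -0.74 to 0.53 for Prf1. For Ncr1 the interval ran from -0.52 to 0.84. With the 4 libraries rich in olfactory receptor counts left out, the median was -0.13 and 2 of 10 lay above 0. EdgeR called 0 of the 17555 (0.0%), and 816 had an unadjusted p under 0.05. DESeq2 called 1 gene with 1204 at that level, and limma-voom called 0 with 1454.

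**Figure D4:**
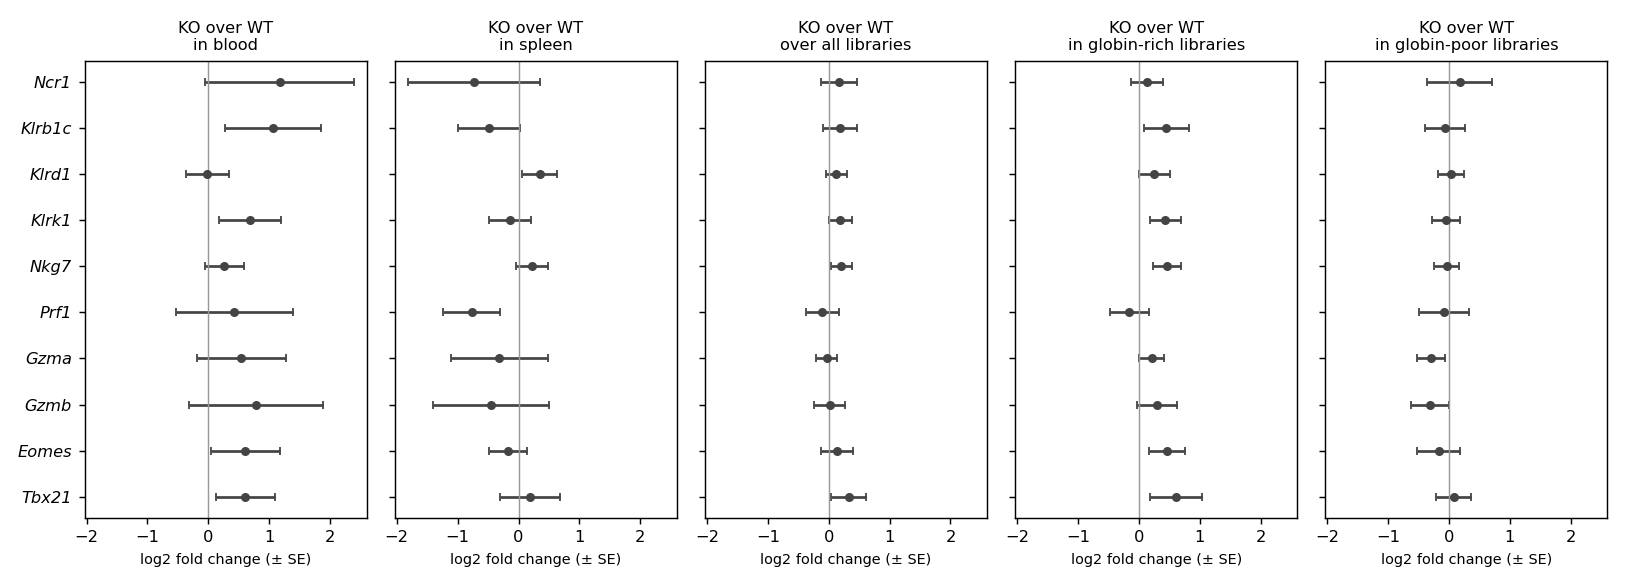
Log2 fold change of KO over WT ± SE (horizontal axes) for the 10 genes in blood, in spleen, over all libraries and within each kind of library, with TMM scaling. No gene was called in any panel, and the points lie mostly right of 0 in blood (9 of 10) and left of 0 in spleen (3 of 10 above 0), where the kinds were unevenly spread between genotypes; without TMM 8 of 10 lay above 0 in blood and 9 of 10 in spleen.

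Each kind of library held 3 KO and 3 WT libraries, but not evenly by tissue label. The globin-rich KO libraries were 2 labelled blood and 1 spleen, against 1 blood and 2 spleen for WT, and the globin-poor KO libraries were 1 blood and 2 spleen, against 2 blood and 1 spleen for WT. In globin-rich libraries Nkg7 had 27.2, 28.0 and 40.8 CPM in KO, against 26.1, 15.2 and 15.1 CPM in WT. Every KO value lay above every WT value, on the CPM and on the TMM scale, and the effect was 0.46 ± 0.23 by TMM and 0.76 ± 0.39 without it, with no call. Under the blood label alone the values were 27.2 and 28.0 CPM in KO, against 26.1 CPM in WT, so most of the gap by CPM lay with the libraries labelled spleen (40.8 CPM in KO, 15.2 and 15.1 CPM in WT). All 3 globin-rich WT libraries were rich in olfactory receptor counts (100.2 to 144 CPM), as was 1 of the 3 KO libraries (blood KO 02 at 129 CPM, the other 2 at 7.89 and 8.04 CPM). That KO library had the lowest Nkg7 value of the 3, and a comparison without the olfactory-rich libraries was not possible, since it leaves no WT library of this kind. Ncr1 (12.6 to 15.9 CPM in KO, 8.70 to 11.7 CPM in WT), Klrb1c (8.59 to 15.0 CPM in KO, 5.44 to 8.41 CPM in WT) and Klrk1 (20.1 to 28.8 CPM in KO, 9.29 to 18.9 CPM in WT) were also apart by CPM, but overlapped on the TMM scale. Over all genes 7.43% lay higher in all KO libraries by CPM and 6.93% by the TMM scale. T cell markers were apart in the same direction, with sums of 479 to 639 CPM in KO and 343 to 474 CPM in WT, and their part in the Nkg7 and Klrk1 levels was not tested. The 10 genes had a median effect of 0.36 with 9 above 0, and none was called. EdgeR called 0 of 11844 genes (0.0%), where 823 had an unadjusted p under 0.05, limma-voom 0 with 1111, and DESeq2 34 with 878, none of them among the 10.

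Globin-poor libraries showed less. Ncr1 had 2.51, 3.39 and 5.20 CPM in KO, against 0.964, 5.03 and 3.73 CPM in WT, an effect of 0.17 ± 0.53. All 10 genes overlapped between genotypes by CPM, where 2.12% of all genes lay apart and higher in KO and 0.908% lower, with a median effect of -0.06 and 3 above 0. Leaving out 1 library gave medians of -0.26 (without blood WT 03) to 0.14 (without spleen WT 01), and 0 to 8 genes above 0. EdgeR called 0 of 16414 genes (0.0%), where 145 had an unadjusted p under 0.05, limma-voom 0 with 119, and DESeq2 5 with 164, none of the 10 among them. Whether the KO effect differed between the kinds was not tested.

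The tissue label, with genotype and kind as terms, called none of the 10 genes and 6 of 17555 genes (0.0342%; 0.0114% higher and 0.0228% lower) by edgeR, and 1775 had an unadjusted p under 0.05. Gzmb stood at 0.27 ± 0.25 and Klrd1 at -0.20 ± 0.17, blood over spleen. Within globin-poor libraries some genes did part by label, as did the globin share. That share was 4.90% to 5.90% if labelled blood, against 0.846% to 2.95% if labelled spleen, and its part in the gene levels was not tested. Klrd1 had 19.3 to 27.9 CPM if labelled blood, against 31.3 to 42.2 CPM if labelled spleen. Nkg7 had 32.2 to 38.2 CPM against 45.7 to 61.1 CPM, Klrk1 14.7 to 20.0 CPM against 22.0 to 29.8 CPM, and Tbx21 8.77 to 11.1 CPM against 13.3 to 21.2 CPM. These 4 genes were lower in every library labelled blood on the CPM and the TMM scale, as were 26.3% and 14.5% of all genes. In globin-rich libraries Gzmb (10.5 to 13.4 CPM if labelled blood, 4.40 to 10.4 CPM if labelled spleen) and Eomes (11.3 to 15.9 CPM, 5.86 to 10.97 CPM) were higher under the blood label on both scales, as were 7.22% of all genes by CPM and 8.70% by the TMM scale.

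Other genes of the killer cell pathway were read from lists chosen with earlier results of these data known, globin-rich over globin-poor. Of 26 tested NK receptors of the Klr and related families, 15 were called higher and 2 lower with TMM, with a median log2 fold change of 1.12, beside 29.1% of all genes higher and 26.8% lower. Without TMM 2 were called higher and 6 lower, where 12.7% of all genes were higher and 57.4% lower. These shares over all genes are the background for each list that follows. The 2 lower with TMM, named after their values were seen, were Klri1 (-2.97 ± 0.74) and the inhibitory receptor Tigit (-1.53 ± 0.49). Cd226 (DNAM-1), an adhesion receptor that platelets also carry, was higher by 4.73 ± 0.22, with 28.0 to 73.1 CPM in globin-rich libraries, against 2.25 to 7.54 CPM in globin-poor ones. Klra9, an inhibitory Ly49 receptor for MHC class I, was higher by 2.15 ± 0.34, and both kept a call without TMM (3.65 and 1.04). Fcgr3, an antibody receptor shared with myeloid cells, and the receptor chain Klre1 were higher by 1.61 ± 0.23 and 1.55 ± 0.25 with TMM, but were not called without it (0.55 and 0.44). Ly49 genes are close copies of each other, so their single values are uncertain.

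Of 15 other granzyme and granule genes 9 were tested, with 2 called higher, 2 lower and a median of 0.26; without TMM 1 was higher and 3 lower. The shares with TMM were no larger than those over all genes. Srgn, the proteoglycan that packs granule contents in killer cells and platelets alike, was higher by 2.07 ± 0.17 (324 to 873 CPM against 204 to 401 CPM). Ctsw, a protease of killer cells, was higher by 0.71 ± 0.16 with TMM but stood at -0.40 without it. Serpinb9, the inhibitor that shields cells from granzyme B, was lower by both scalings (-0.87 ± 0.16 and -1.96), with 7.62 to 16.5 CPM in globin-rich libraries, against 30.6 to 61.4 CPM in globin-poor ones. Its relative Serpinb6b was lower too (-2.41 ± 0.27 and -3.45), with 0.653 to 6.95 CPM against 31.8 to 49.8 CPM.

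The release machinery held 9 tested genes, 6 called higher and 1 lower with a median of 0.47, and 1 higher and 5 lower without TMM. Stx11, a syntaxin needed for granule fusion in killer cells and platelets, was higher by 3.78 ± 0.23 (76.3 to 239 CPM against 20.4 to 30.7 CPM). The priming factor Unc13d (1.16 ± 0.12) and the lysosome regulator Lyst (2.23 ± 0.47) were called with TMM only, with 0.06 and 1.15 without it. Vamp8, a vesicle SNARE, was lower by both scalings (-0.87 ± 0.22 and -1.93). Of 14 adaptors and kinases of killer receptors 6 were called higher and 0 lower, with a median of 0.39; without TMM 0 were higher and 8 lower, close to the 57.4% of all genes lower on that scale. The 6 were Fcer1g (1.33 ± 0.21), Tyrobp (1.31 ± 0.25), Plcg2 (1.03 ± 0.17), Syk (0.99 ± 0.23), Lcp2 (0.81 ± 0.13) and Vav1 (0.52 ± 0.16). The part of platelets or other cells in the levels of these release and adaptor genes was not tested. Without TMM Fcer1g and Tyrobp stood at 0.25 each without a call, Plcg2, Syk and Lcp2 stood below 0 without a call, and Vav1 was called lower (-0.57).

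Among 18 cytokines and receptors of killer cells 8 were called higher and 2 lower, with a median of 0.50; without TMM 2 were higher and 7 lower. S1pr5, the sphingosine phosphate receptor by which mouse NK cells leave lymphoid organs, was higher by 3.78 ± 0.37, with 8.80 to 29.3 CPM in globin-rich libraries, against 1.15 to 5.93 CPM in globin-poor ones. Il18rap, an interleukin 18 receptor chain, was higher by 2.44 ± 0.23 (18.3 to 59.2 CPM against 6.17 to 15.3 CPM), and both kept a call without TMM (2.65 and 1.37). The other chain, Il18r1, was higher by 1.67 ± 0.21 with TMM only (0.61 without). The ligand Il18 itself was lower by both scalings (-1.76 ± 0.30 and -2.87), with 1.10 to 2.57 CPM against 9.25 to 17.3 CPM.

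Of 11 other transcription factors of killer cells 6 were called higher and 1 lower, with a median of 0.71 (29.1% and 26.8% of all genes), and without TMM 0 were higher and 3 lower (12.7% and 57.4%). Id2, which NK cells need for their development, was the 1 lower, by both scalings (-1.33 ± 0.17 and -2.42), with 9.77 to 29.6 CPM against 58.8 to 111 CPM. Ikzf3 (1.58 ± 0.31), Ets1 (1.41 ± 0.21) and Irf2 (0.77 ± 0.12) were called higher with TMM and stood at 0.47, 0.30 and -0.32 without it. Of 6 NK maturation markers 5 were called higher and 0 lower, with a median of 0.95, and without TMM 2 were higher and 1 lower. Itga2 (CD49b), an NK marker that is also a platelet collagen receptor, was higher by 5.52 ± 0.36, and Itgam (CD11b), shared with neutrophils and monocytes, by 3.22 ± 0.20. Both kept a call without TMM (4.46 and 2.16). Cd7 (1.16 ± 0.16), Spn (0.73 ± 0.13) and Ly6c2 (0.71 ± 0.16) did not (0.04, -0.35 and -0.35). Ly6c2 is also in the list of monocyte markers used here.

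Of 14 ligands that killer receptors see on other cells 10 had an identifier and 7 were tested, with 2 called higher, 2 lower and a median of -0.01, shares close to those over all genes. Without TMM 0 were higher and 6 lower. Nectin2 and Pvr, the ligands of DNAM-1, were lower by both scalings (-3.91 ± 0.49 and -5.01 for Nectin2, -1.35 ± 0.33 and -2.44 for Pvr). Nectin2 had 0 to 1.89 CPM in globin-rich libraries, against 15.1 to 30.0 CPM in globin-poor ones. H2-T23 (Qa-1), which the receptor pair of Klrd1 recognises, was called higher with TMM (0.57 ± 0.16) and lower without it (-0.53), as was Cd48, the ligand of 2B4 (0.39 ± 0.13 and -0.70). Stromal markers, which sum to 123 to 211 CPM in globin-rich libraries, against 471 to 1144 CPM in globin-poor ones, moved with the lower ligands, and their part was not tested. In the KO comparisons no gene of these 8 lists was called.

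**Figure D5:**
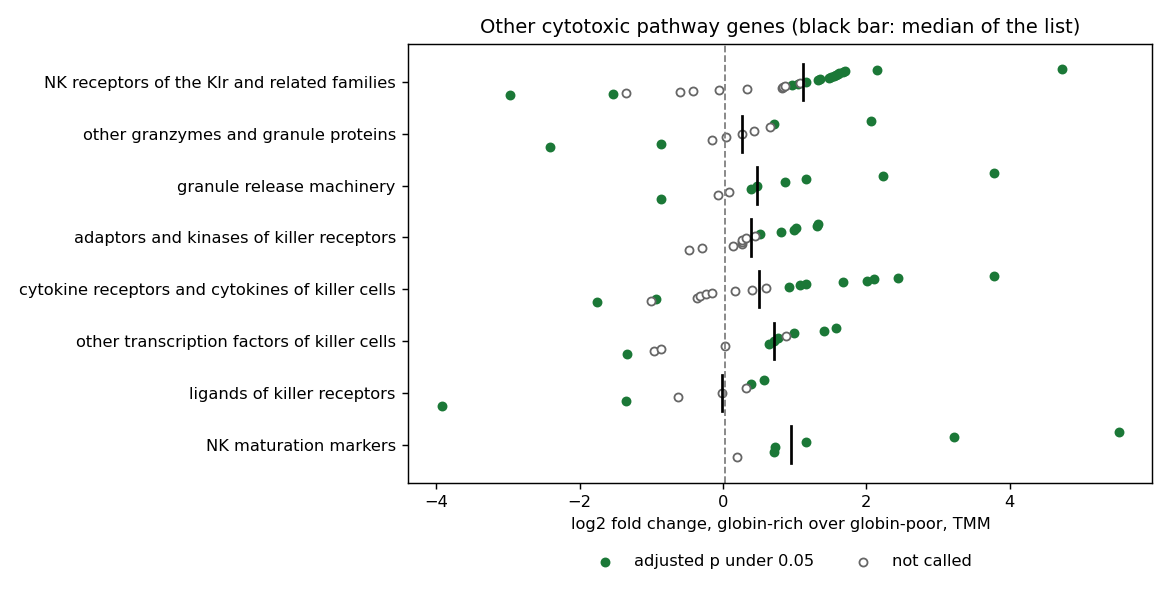
Log2 fold change of globin-rich over globin-poor libraries with TMM scaling (horizontal axis) for each tested gene of 8 lists of the killer cell pathway; filled points have an adjusted p under 0.05, black bars are list medians and the dashed line is the median of all genes, 0.02. NK receptors lie mostly right of the line (median 1.12), ligands lie on both sides (median -0.01), and without TMM the medians fell, to 0.04 for receptors and to -1.09 for ligands.

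The genes nearest to each of the 10 by profile were ranked by the root mean square difference of centred log2(CPM + 1) over the 12 libraries, among 10790 genes averaging 5 CPM or more. For Ncr1 they were Ceacam1 (difference 0.34), Ace (0.34) and Pnpla8 (0.35), where the spread of Ncr1 itself was 0.94. Gzmb was nearest to Grap2 (0.32), Gzma to Nhsl2 (0.20), Prf1 to Arhgef3 (0.23) and Klrb1c to Arhgap27os3 (0.22). Nkg7 was nearest to Tk2 (0.11), Klrd1 to Tor4a (0.12), Klrk1 to Zer1 (0.14), Eomes to Tlr1 (0.13) and Tbx21 to Tmem185a (0.22). Outside the 10, none of the 3 nearest genes of any member was in the 8 killer cell lists. Genes of those lists that averaged under 5 CPM could not be ranked. Ace is in the list of monocyte markers used here. All these differences share library depth and kind.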

How the data were processed

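Each library has a deposited table of raw gene counts, not normalized, that the authors made from NEBNext Ultra II RNA libraries, per the labels' protocols. HISAT2 2.0.4, HTSeq, SAMtools 0.1.19, Trimmomatic 0.36 and FastQC are listed in the submitters' processing notes, which name GRCm38 and mm10 as builds. Strand setting and annotation release of the counting are not given in the sources used here, so reads of a gene and of an antisense partner cannot be told apart. Symbols and exon lengths came from GENCODE vM21 of GRCm38, which named 46091 of 46603 identifiers, and promoter windows from RefSeq on GRCm38.p6.

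From these counts, 10 globin genes were left out before library sizes. Genes were kept with filterByExpr, scaled by TMM (factors 0.511 to 0.847 in globin-rich and 1.30 to 1.64 in globin-poor libraries) and tested with edgeR 4.0.16 (robust quasi-likelihood F test, adjusted p under 0.05) in R 4.3.3. DESeq2 1.42.0 and limma 3.58.1 were alternatives, beside other scalings and filters, a replicate block, a library kind term and leaving out single libraries. SE is the effect over the root of F, and intervals of effects are 95%, on that SE and 8 residual degrees of freedom. A library was globin-rich above 25% globin. Shares of genes with groups apart were taken over 14538 genes. Fits were tested on simulated data. There the KO against WT fits in blood, in spleen and of their interaction called few or none of the changes put in. The KO against WT fits within each kind of library called few of the 2-fold changes put in. The fit over all libraries missed many of them. A lack of calls in any of these comparisons therefore does not show equal levels. Precision falls with depth, and the limits given for a count of 0 cover counting error only. The smallest chi-square per degree of freedom between libraries, 8.06, showed no duplicate. Genes, lists, globin threshold and motifs were chosen with earlier results of these data known. Named list genes were all called genes of a list with at most 6 calls, otherwise the 4 with the smallest p, and the 3 genes of nearest profile were ranked for each of the 10.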

Additional observations from a re-analysis of the deposited data

How the results depend on the processing

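The number of the 10 genes called, with both directions pooled, did not move past 1.5 times in any alternative: it was 0 in each genotype, interaction and tissue label comparison, and 5 to 8 (6 to 9 leaving out each library) for globin-rich over globin-poor. The directions of the globin-rich over globin-poor calls did move. With TMM 6 genes were called higher and 0 lower, but without it 3 were called higher and 2 lower (Nkg7 and Klrd1). Signs turned for effects that were small or tied to scaling, and the cause was not tested. Klrd1 in KO blood was 0.0062 with DESeq2 size factors, 0.0066 with globin kept and 0.0034 with DESeq2, and -0.15 to 0.21 leaving out each library. Ncr1 in KO spleen was 0.048 without TMM and 0.13 with the kind term. Prf1 in KO over all libraries was 0.030 without a filter, 0.089 with the replicate block and -0.29 to 0.079 leaving out each library. Ncr1 in KO globin-poor libraries was -0.26 with the block and -0.22 to 0.69 leaving out each library. For globin-rich over globin-poor, Tbx21 (-0.64), Nkg7 (-0.84), Klrk1 (-0.24), Klrd1 (-0.65) and Eomes (-0.47) turned without TMM, and Nkg7 was -0.047 without a filter and -0.045 to 0.39 leaving out each library.

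Counts over all genes moved more. KO over all libraries called 55 genes without a filter, 1 with DESeq2 and 1 without the library blood KO 02. KO in globin-rich libraries called 45 without a filter, 34 with DESeq2 and 568 without blood KO 02, and KO in globin-poor libraries called 5 with DESeq2. The tissue label called 438 without a filter, 410 with DESeq2, 711 with limma-voom and 2 to 13 leaving out each library, and globin-rich over globin-poor called 6344 without the 4 libraries rich in olfactory receptor counts. Klrd1 (adjusted p 0.023 to 0.045) and Eomes (0.035 to 0.046) were called for globin-rich over globin-poor with DESeq2 size factors, a 5 CPM filter, DESeq2 and limma-voom, while Klrk1 lost its call without a filter (0.56, adjusted p 0.052). Leaving out blood KO 03 gave a median of the 10 genes of 0.79 for globin-rich over globin-poor.

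The labels share replicate numbers between groups but do not tie a number to a mouse. Same-numbered KO and WT libraries cannot share a mouse. Their deviations correlated at -0.24 and 0.67 in blood and 0.46 and -0.50 in spleen, negative where the kinds differed. Blood and spleen libraries of the same genotype and number could share a mouse. Their deviations correlated at -0.77 (WT 01), -0.46 (WT 04), 0.61 (KO 03) and 0.56 (KO 04), again negative where the kinds differed. The sign followed the kind, so these values do not show whether a number marks a mouse. Apart from the replicate block, the fits took all libraries as independent. With the replicate block, 6 of the 10 genes were called for globin-rich over globin-poor, and none in any genotype comparison that allowed one. The globin-rich genotype comparison shares only 1 number, so it had no such fit. Depth limits the globin-rich libraries most: Tbx21 had 9 counts in spleen WT 04.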

Other observations

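Markers of other cells in the same libraries were counted for globin-rich over globin-poor with TMM by the edgeR test. Of 12 T cell markers 4 were called higher and 0 lower (median log2 fold change 0.12), but without TMM 0 were higher and 10 lower. Over all genes 29.1% were higher and 26.8% lower with TMM, and 12.7% and 57.4% without it, and each count here is to be read beside those shares. Of 6 CD8 and gamma-delta T cell markers 1 was higher (median -0.13), and sums were 77.5 to 150 CPM in globin-rich libraries, against 129 to 329 CPM in globin-poor ones. Innate-like T and ILC1 markers had 1 of 5 higher and 1 lower. Plasmacytoid dendritic cell markers had 5 of 6 lower and 0 higher (median -0.66; 6 lower without TMM), with sums of 156 to 425 CPM against 707 to 1545 CPM. Of 10 platelet markers all 10 were higher by both scalings (medians 5.10 and 4.01). Red pulp macrophage markers had 4 of 5 lower (median -4.33) and stromal and endothelial markers 7 of 8 lower and 1 higher (median -4.92).

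Neutrophil markers had 6 of 10 higher and 3 lower with TMM, and the library labelled spleen KO 03 held the highest sum at 4049 CPM, against at most 1242 CPM in the other 11. That library also held the highest Ncr1 and Gzma values of the 12 by CPM, but not on the TMM scale. Monocyte markers had 4 of 6 higher with TMM, and 2 higher and 2 lower without it, with a median sum of 341 CPM in globin-rich libraries, against 397 CPM in globin-poor ones. B cell markers had 4 of 7 higher and 1 lower with TMM, but 0 higher and 4 lower without it, and their sums were 1073 to 2646 CPM in globin-rich libraries, against 2608 to 5020 CPM in globin-poor ones. Basophil and mast cell markers had 2 of 5 higher with TMM, and 0 higher and 1 lower without it.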
